A study of Mus musculus with 12 samples.

Results

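The integrated stress response and the unfolded protein response were followed through 10 genes in primary mouse hepatocytes with deletion or overexpression of Cebpa. The genes were chosen by symbol from a fixed list, 10 of the 55450 genes measured. Of these, 7 belong to the ATF4 branch (Atf4, Atf5, Atf3, Trib3, Chac1, Sesn2 and Asns) and 3 to the ER chaperone branch (Xbp1, Hspa5 and Herpud1). RNA was sequenced in 12 libraries, 3 in each of 4 groups. WT hepatocytes carried floxed Cebpa alleles (Cebpa fl/fl), and KO hepatocytes (CebpaΔAlb) had lost them through Cre recombinase driven by the albumin promoter. GFP hepatocytes were given an adenovirus for green fluorescent protein (Ad-GFP), and OE hepatocytes an adenovirus for mouse Cebpa (Ad-m-Cebpa). The labels give no genotype beyond the virus for the GFP and OE cells, no duration of exposure and no age. For other assays the study gives the genotype (WT) and an exposure time of hepatocytes given these viruses. Whether the sequenced cells were the same is not stated. They number the libraries as biological replicates without saying whether these came from separate mice or cultures, so the p-values measure only the spread between these libraries.

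Cells answer amino acid shortage, unfolded protein in the endoplasmic reticulum (ER), haem shortage and viral RNA by phosphorylating the translation factor eIF2α. Most protein synthesis then slows while ATF4 is translated, and this leucine zipper factor turns on genes for amino acid supply, redox balance and feedback control, often together with partners of the C/EBP family. Unfolded protein also activates the ER sensors IRE1, which splices Xbp1 mRNA, and ATF6, and both raise chaperones and degradation factors of the ER. Hepatocytes secrete plasma proteins in large amounts and keep a high level of these chaperones. Gene-level RNA counts do not show the translation of ATF4 or the splicing of Xbp1.

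Library totals were 20160081 to 23304230 expected counts. The 10 most abundant genes took 19.1% to 23.3% of the counts in WT and KO, against 5.07% to 8.03% in GFP and OE. Levels in CPM are counts scaled to library size times a TMM factor, set over all 12 libraries. The factors were 0.603 to 0.663 in WT and KO and 1.49 to 1.66 in GFP and OE. CPM levels compared between untransduced and transduced cells therefore rest on this scaling. The targeted gene followed the labels, with Cebpa at 436 ± 63.1 CPM (mean ± SD, n = 3) in WT, 0.722 ± 0.689 in KO, 32.3 ± 2.01 in GFP and 8723 ± 226 in OE. The 8 hepatocyte markers summed to 176872 to 245493 CPM in WT and KO, but only to 21822 to 22427 with Ad-GFP and 7950 to 8410 with Ad-m-Cebpa, and none of them was at 0 in any group. Marker lists of macrophages, endothelial cells, stellate cells and cholangiocytes each summed to at most 140 CPM in every library. The spread between libraries, as edgeR's common coefficient of biological variation, was 20.4% in WT and KO and 4.04% in GFP and OE. Bulk RNA cannot tell fewer cells of a type from less RNA per cell.

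Promoters of the members are shown where a motif known to be bound by factors of these pathways was found. All 10 members matched a RefSeq promoter window on GRCm38.p6, the assembly that mm10 names. Each window runs from 250 bases before to 50 after an annotated start and is printed 5′ to 3′ on the strand of its gene, so a match on the other strand appears as its reverse complement. Capitals mark the C/EBP-ATF composite element (TGATGNAA, the site of ATF4 with a C/EBP partner) and the ER stress element (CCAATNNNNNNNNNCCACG, the site of ATF6 with NF-Y), each on either strand, and in Herpud1 also the shorter ER stress element II (ATTGGNCCACG), a motif added after the windows had been seen.
Atf3, chr1:191183284-191183583, minus strand: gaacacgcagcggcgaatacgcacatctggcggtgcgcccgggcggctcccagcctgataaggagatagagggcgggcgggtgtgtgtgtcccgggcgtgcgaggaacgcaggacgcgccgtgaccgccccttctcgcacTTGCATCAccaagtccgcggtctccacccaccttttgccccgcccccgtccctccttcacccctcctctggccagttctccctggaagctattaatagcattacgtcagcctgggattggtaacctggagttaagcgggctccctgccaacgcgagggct
Trib3, chr2:152344011-152344310, minus strand: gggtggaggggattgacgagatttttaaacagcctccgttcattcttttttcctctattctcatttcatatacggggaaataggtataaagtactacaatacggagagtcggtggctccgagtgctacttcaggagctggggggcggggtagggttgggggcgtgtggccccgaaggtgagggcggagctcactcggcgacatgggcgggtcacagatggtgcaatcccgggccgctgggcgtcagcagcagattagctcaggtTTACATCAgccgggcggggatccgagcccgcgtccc
Asns, chr6:7693160-7693459, minus strand: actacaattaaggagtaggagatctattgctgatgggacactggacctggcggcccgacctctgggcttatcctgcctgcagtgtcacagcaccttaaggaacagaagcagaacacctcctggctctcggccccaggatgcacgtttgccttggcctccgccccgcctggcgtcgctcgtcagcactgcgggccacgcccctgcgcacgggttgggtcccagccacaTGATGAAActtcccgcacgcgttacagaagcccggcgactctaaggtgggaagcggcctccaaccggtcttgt
Chac1, chr2:119350992-119351291, plus strand: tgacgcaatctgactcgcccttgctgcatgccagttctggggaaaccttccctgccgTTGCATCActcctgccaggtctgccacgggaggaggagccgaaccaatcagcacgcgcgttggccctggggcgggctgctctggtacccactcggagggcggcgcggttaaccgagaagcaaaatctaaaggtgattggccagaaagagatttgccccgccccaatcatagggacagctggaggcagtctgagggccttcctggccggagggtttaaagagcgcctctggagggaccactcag
Hspa5, chr2:34771840-34772139, plus strand: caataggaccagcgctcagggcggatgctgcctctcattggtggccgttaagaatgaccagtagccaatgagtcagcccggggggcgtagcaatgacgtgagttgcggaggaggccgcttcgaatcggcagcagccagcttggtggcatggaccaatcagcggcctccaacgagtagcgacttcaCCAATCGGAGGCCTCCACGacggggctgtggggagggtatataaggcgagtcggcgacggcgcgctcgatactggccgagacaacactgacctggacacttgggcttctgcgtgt
Herpud1, chr8:94386179-94386478, plus strand: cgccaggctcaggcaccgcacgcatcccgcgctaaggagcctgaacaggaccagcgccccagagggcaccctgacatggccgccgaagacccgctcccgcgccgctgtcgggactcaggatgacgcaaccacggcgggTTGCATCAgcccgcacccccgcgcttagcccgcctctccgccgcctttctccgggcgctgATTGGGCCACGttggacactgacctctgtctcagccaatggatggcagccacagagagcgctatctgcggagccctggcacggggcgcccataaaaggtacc
The composite element stood in the windows of 4 of the 7 ATF4 branch members (Atf3, Trib3, Asns and Chac1) and of 1 of the 3 ER chaperone branch members (Herpud1), against 3.97% of all 32851 windows. Counted from the RefSeq start of each window, the match in Trib3 lay 15 bases into the transcript. The others lay 110 bases upstream of that start in Atf3, 23 in Asns, 193 in Chac1 and 112 in Herpud1. The full ER stress element stood in Hspa5, 65 bases upstream, against 0.119% of all windows. ER stress element II stood in Herpud1, 52 bases upstream, against 0.0365%. The GENCODE gene bounds given below differ from these starts, and for Atf3 the 5′ end is at 191218039, outside the printed window. By those bounds the matches of Atf3, Asns and Hspa5 lay inside the gene, and that of Trib3 lay before it. The C/EBP site TTGCNNAA was found only in Xbp1 among the members (10.8% of all windows). The UPR element TGACGTGG (0.676%) and the cAMP response element TGACGTCA (1.79%) were in no member's window, and no 2 matches overlapped. Herpud1 was the only member whose window held an element of each kind. In the list of 20 ER chaperones and disulfide enzymes, 16 matched a window, and the ER stress element stood in 7 of them. In the list of 18 cytosolic aminoacyl-tRNA synthetases, 10 matched, and 5 held the composite element, Gars among them. These are matches of letters, not measured binding.

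The balance of the branches differed between the untransduced cells (WT and KO) and the transduced cells (GFP and OE). Between these sets, effects of adenovirus, culture, genotype and preparation cannot be told apart. Per length, in TPM (transcript shares scaled to a common sum), the summed level of the 3 ER chaperone branch members was 5.22 ± 1.16 times that of the 7 ATF4 branch members in WT and 6.77 ± 1.72 times in KO, but 1.18 ± 0.0133 times in GFP and 1.45 ± 0.0117 times in OE. This ratio, taken within each library, does not depend on how libraries are scaled. It was lowest among the untransduced libraries in WT1 (3.87) and highest in KO2 (8.71), and every WT and KO library lay above every GFP and OE library. Hspa5 made up most of the ER sum, at 728 ± 92.8 TPM in WT and a mean of 1461 TPM in OE. Atf4 and Atf5 made up most of the ATF4 sum in WT, at 76.4 ± 18.1 and 159 ± 28.3 TPM, while in OE Chac1 stood at 235 ± 1.87 TPM and Asns at 178 ± 4.63 TPM beside Atf4 at 345 ± 11.7 TPM.

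**Figure D1:**
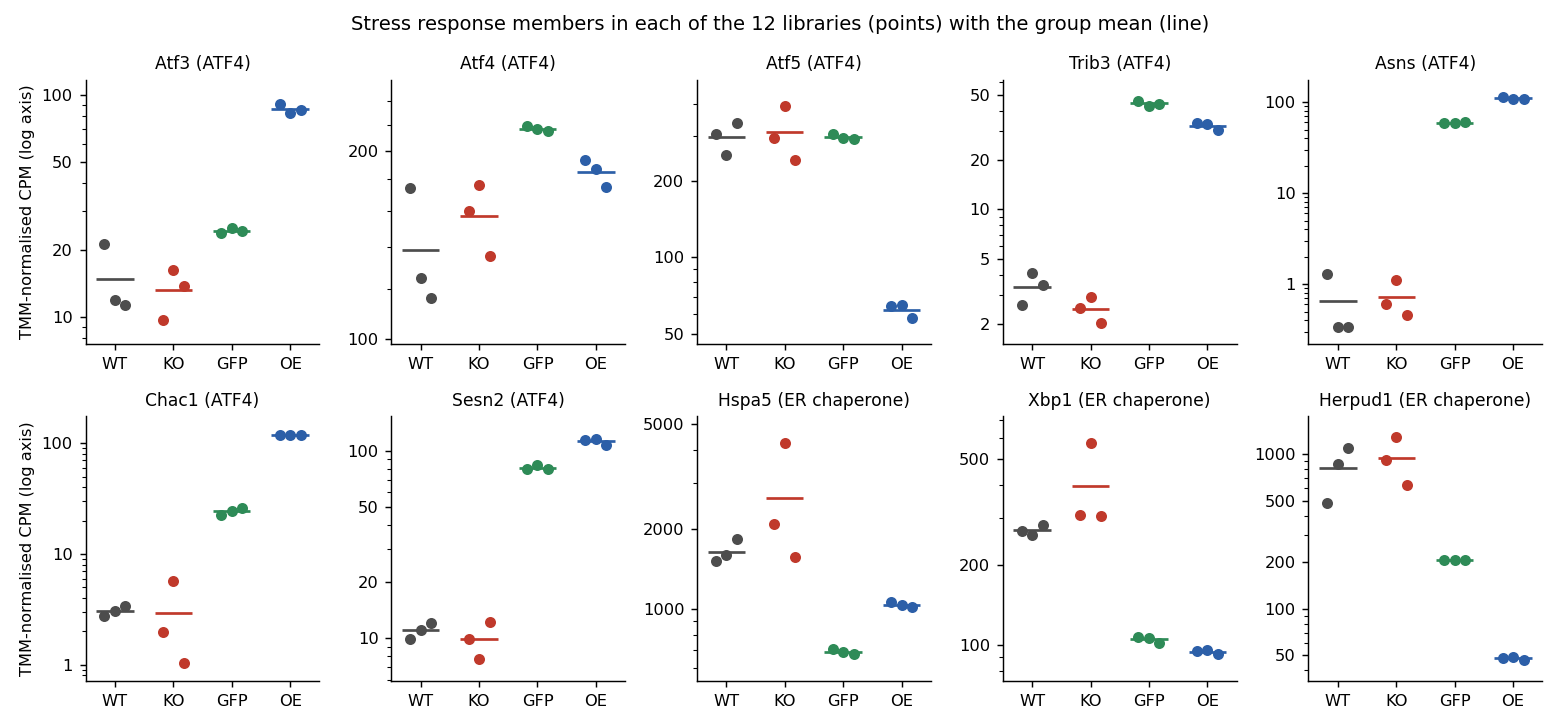
CPM of each of the 10 members on a log axis in the 12 libraries (points), with the group mean (line) for WT, KO, GFP and OE. Asns, Trib3, Chac1 and Sesn2 sit far lower in WT and KO than in GFP and OE, Hspa5, Xbp1 and Herpud1 sit higher there on this scale, and KO2 stands above the other KO libraries for Hspa5 (4234 CPM) and Xbp1 (572 CPM).

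**Figure D2:**
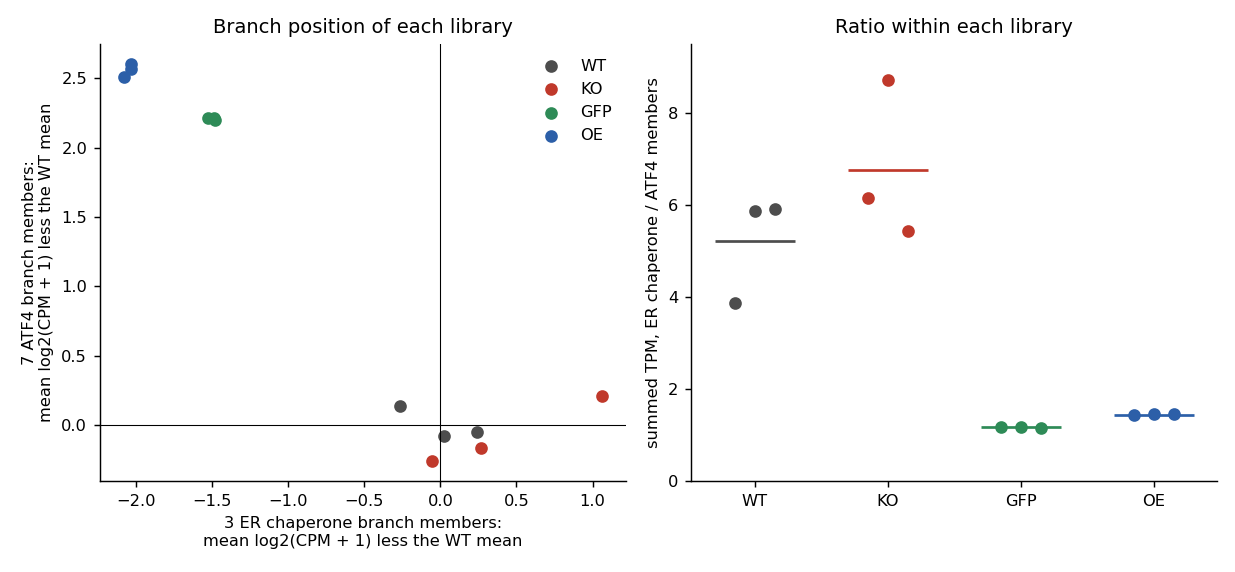
Left, the mean log2(CPM + 1) of the 7 ATF4 branch members against that of the 3 ER chaperone branch members, each less its WT mean, for each library. Right, the summed TPM of the ER chaperone branch divided by that of the ATF4 branch in each library (points) with the group mean (line), at 3.87 to 8.71 in WT and KO and 1.16 to 1.46 in GFP and OE.

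In order of mean CPM, WT and KO were neighbours for all 10 members, and their ranges overlapped for every member but Xbp1. Asns, Chac1, Sesn2 and Atf3 had their highest CPM in OE, Atf4 and Trib3 in GFP, and Atf5 and the 3 ER chaperone branch members in KO. The OE libraries lay below all others in CPM for Atf5, Xbp1 and Herpud1. GFP also overlapped WT in CPM for Atf5, and KO overlapped OE for Atf4. Some members had another order in TPM. There Hspa5 was highest in OE (1461 TPM, against 728 in WT, 778 in GFP and 1133 in KO), Atf4 in OE (345 TPM, against 326 in GFP) and Atf5 in GFP (421 TPM, against 161 in KO). Xbp1 ran from 128 TPM in WT through 129 in GFP and 143 in OE to 188 in KO. Asns, at low counts in WT and KO, averaged 0.557 TPM in WT and 0.333 in KO, against 0.658 and 0.720 CPM. Atf5 and Herpud1 were lowest in OE on both scales.

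The comparison of KO with WT asked which genes depend on Cebpa in hepatocytes. None of the 9 members tested passed edgeR's quasi-likelihood test with Benjamini-Hochberg adjustment over 11846 genes at an adjusted p under 0.05. None passed at an unadjusted p under 0.05 either, and DESeq2 called none, with 2 members at an unadjusted p under 0.05. Over all genes 0.692% were called higher and 1.02% lower, so a count of 0 among 9 members does not set them apart. Higher genes were 40.4% of all calls, and 28.6% with limma on log2(TPM + 1). Asns, which makes asparagine, did not reach the count filter, with 28 counts over the 3 WT libraries and 29 over the 3 KO libraries.

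The ATF4 branch varied as much within the groups as between them. Atf4 (ENSMUSG00000042406.8, mm10 chromosome 15, 80255184 to 80257541, plus strand) stood at 174, 125 and 116 CPM in WT and 160.0, 176 and 136 in KO. WT1 was close to the highest KO library, and the log2 fold change was 0.20 ± 0.19 (adjusted p = 0.656, ± here and below being the SE of a fold change). Atf5 (ENSMUSG00000038539.15, chromosome 7, 44812256 to 44816658, minus strand), a related factor that is likewise translated under stress, stood at 305, 252 and 335 CPM in WT and 293, 393 and 242 in KO (0.08 ± 0.21, adjusted p = 0.899). Exons of Atf5 overlap those of Nup62 and Il4i1 on the opposite strand, and whether the counting used strand is not given in the sources used here. Atf3 (ENSMUSG00000026628.13, chromosome 1, 191170296 to 191218039, minus strand), a stress-induced repressor, was at 11.3 to 21.4 CPM in WT and 9.69 to 16.3 in KO (-0.15 ± 0.30, adjusted p = 0.853). WT1 held the highest Atf3 and Asns levels of the 6 libraries in CPM, but in TPM Asns was highest in WT3 (0.89, against 0.63 in WT1). Trib3 and Chac1 were near 3 CPM in both groups, and Chac1 spanned 1.04 to 5.73 CPM within KO. Sesn2 was at 7.77 to 12.2 CPM in KO, a range that held all 3 WT libraries (-0.13 ± 0.18, adjusted p = 0.770).

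The ER chaperone branch had higher means in KO, and a single library carried most of the difference. Hspa5 (ENSMUSG00000026864.13, chromosome 2, 34771970 to 34777547, plus strand), the ER chaperone BiP, stood at 1511, 1597 and 1832 CPM in WT and 2095, 4234 and 1575 in KO (0.70 ± 0.36, adjusted p = 0.437). Without KO2 the log2 fold change was 0.16. Xbp1 (ENSMUSG00000020484.18, chromosome 11, 5520659 to 5525893, plus strand), the factor activated by IRE1, stood at 267, 259 and 282 CPM in WT and 308, 572 and 305 in KO. Its groups did not overlap, yet the difference of 0.57 ± 0.26 did not pass (adjusted p = 0.390) and was 0.19 without KO2. Herpud1 (ENSMUSG00000031770.16, chromosome 8, 94386438 to 94395377, plus strand), an ER membrane component of the degradation machinery, stood at 487, 863 and 1094 CPM in WT and 921, 1293 and 634 in KO (0.24 ± 0.35, adjusted p = 0.784), and was -0.06 without KO2.

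KO2 stood apart most across the ER secretory genes, but not only there. It was the highest of the 6 libraries for 19 of the 20 ER chaperones and disulfide enzymes and for 14 of the 17 genes of ER-associated degradation and translocation, against 20.5% of all genes tested. KO2 was also highest for 12 of 18 tRNA synthetases, 6 of 13 sensors and eIF2α regulators and 6 of 12 bZIP partners and effectors. The same held for 5 of 10 heat shock genes and 3 of 6 ATF4 branch members. It held for 3 of 10 mitochondrial genes, 1 of 8 amino acid synthesis genes and 0 of 5 transporters. The median log2 fold change of KO against WT was 0.32 over the chaperone list and 0.24 over the degradation list, and without KO2 it was 0.09 and -0.02, beside 0.01 over all genes in both fits. ATF4 branch members had a median of -0.09, and -0.24 without KO2. Hyou1, an ER chaperone of the HSP110 family, had the lowest p of the chaperone list (0.91 ± 0.35, adjusted p = 0.312), followed by Hspa13 (0.68 ± 0.32, adjusted p = 0.410). In the degradation list these were Edem3 (0.32 ± 0.13, adjusted p = 0.333) and Os9 (0.24 ± 0.11, adjusted p = 0.385). KO2 also had the highest macrophage marker sum of the 6 libraries (74.4 CPM, against 5.61 to 64.3 in the others), with none of the 12 markers at 0 in KO as a whole, and the part of such cells in its ER levels was not tested.

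**Figure D3:**
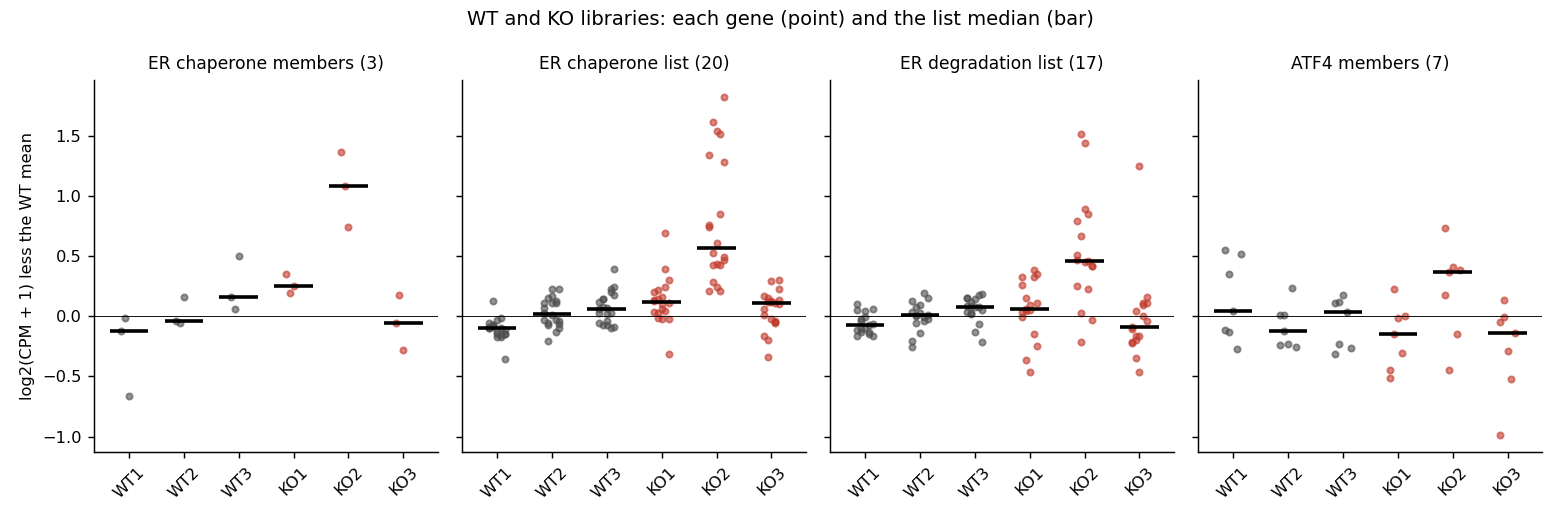
Log2(CPM + 1) less the WT mean in each WT and KO library for the 3 ER chaperone branch members, the 20 genes of the ER chaperone list, the 17 genes of the ER degradation list and the 7 ATF4 branch members (points), with the median of each list (bar). The median in KO2 is 1.08, 0.57, 0.46 and 0.37 in the 4 panels, and in the other 5 libraries every median lies between -0.14 and 0.25.

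Among the other genes of these pathways, 3 passed in edgeR between KO and WT. Cebpg, a C/EBP family partner of ATF4, rose from 97.6 ± 11.9 CPM in WT to 247 ± 41.6 in KO (1.36 ± 0.17, adjusted p = 0.0146), the only call among the 12 tested of 16 bZIP partners and effectors. Ddit3, the stress-induced factor CHOP, was at 6.12 to 10.6 CPM in WT and 7.10 to 21.8 in KO (0.60 ± 0.45, adjusted p = 0.582). This symbol has 2 gene entries, and the values here and below are of the entry with more counts (ENSMUSG00000025408.15). Ddit4, an inhibitor of mTORC1, was at 27.1 to 53.9 CPM in WT and 5.65 to 20.9 in KO (adjusted p = 0.255). Of 8 amino acid synthesis and one-carbon genes tested, Mthfd2, a mitochondrial folate enzyme, rose from 3.31 ± 0.555 to 8.96 ± 2.05 CPM (1.45 ± 0.24, adjusted p = 0.0378), and Cth, which makes cysteine from cystathionine, fell from 521 ± 57.8 to 274 ± 50.5 CPM (adjusted p = 0.0415). The calls of Mthfd2 and Cth were each lost in 5 of the 6 fits that left out a library, and that of Cebpg without WT1 or WT2. In edgeR no gene passed among 13 ER stress sensors, eIF2α kinases and phosphatase subunits (lowest p, Mbtps2 and Eif2ak3, adjusted p = 0.221 and 0.395), 5 tested amino acid transporters (Slc3a2 and Slc7a5, 0.206 and 0.466), 18 tRNA synthetases (Vars and Rars, 0.224 and 0.317), 10 mitochondrial chaperones and proteases (Afg3l2 and Hspa9, 0.302 and 0.486) or 10 cytosolic heat shock genes (Hspb1 and Bag3, 0.117 and 0.501). DESeq2 called 1 more gene lower in the bZIP list (Ddit4, adjusted p = 0.0399), 1 more lower in the amino acid synthesis list and 1 lower in the heat shock list (Hspb1, adjusted p = 0.000376).

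The comparison of OE with GFP asked which genes an excess of Cebpa changes in transduced hepatocytes. All 10 members passed the same test over 14889 genes, 5 higher and 5 lower. Over all genes 43.9% were called higher and 42.7% lower, so being called does not set a member apart. Higher genes were 50.7% of all calls, and 63.4% with limma on log2(TPM + 1), where 7 members were called higher and 3 lower. Changes over 2-fold, which 42% of all genes tested showed, were found in 4 members, Chac1, Atf3, Atf5 and Herpud1. The members of each branch moved in both directions, 4 higher and 3 lower in the ATF4 branch (median log2 fold change 0.46) and 1 higher and 2 lower in the ER chaperone branch (median -0.16), beside a median of 0.01 over all genes.

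The regulators of the ATF4 branch parted. Atf4 stood at 219, 217 and 215 CPM in GFP and 193, 187 and 175 in OE, a change of -0.24 ± 0.03 (adjusted p = 1.37e-05). Every OE library was below every GFP library in CPM. With limma on log2(TPM + 1), however, Atf4 was called higher (0.08, adjusted p = 0.0392). The fit of all 12 libraries did not call Atf4 (adjusted p = 0.146). Atf5 fell from 304, 294 and 289.8 CPM in GFP to 64.2, 64.7 and 57.7 in OE (-2.26 ± 0.04, adjusted p = 1.49e-15). Atf3 rose from 23.8, 25.2 and 24.3 CPM to 90.8, 82.5 and 85.6 (1.81 ± 0.04, adjusted p = 1.35e-14). Atf5 and Atf3 moved 4.79-fold and 3.51-fold in opposite directions, while Atf4 differed by 1.18-fold.

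The effectors of the branch parted too. Chac1 (ENSMUSG00000027313.3, chromosome 2, 119351229 to 119354381, plus strand), which degrades glutathione, rose from 22.5, 24.5 and 26.1 CPM in GFP to 119.6, 119 and 118 in OE (2.28 ± 0.04, adjusted p = 1.35e-15). Asns (ENSMUSG00000029752.12, chromosome 6, 7675169 to 7693254, minus strand) rose from 59.1, 59.5 and 60.1 CPM to 115, 108 and 109 (0.88 ± 0.03, adjusted p = 1.08e-12). Sesn2 (ENSMUSG00000028893.8, chromosome 4, 132492032 to 132510501, minus strand), a leucine sensor that restrains mTORC1, rose from 80.2, 84.0 and 79.3 CPM to 114, 116 and 108 (0.46 ± 0.03, adjusted p = 8.67e-09). Trib3 (ENSMUSG00000032715.9, chromosome 2, 152337422 to 152344032, minus strand), a pseudokinase that feeds back on ATF4, fell from 46.1, 43.0 and 44.4 CPM to 33.6, 33.4 and 30.4 (-0.46 ± 0.05, adjusted p = 2.74e-07). Of the 5 members with a composite element in the printed windows, Atf3, Asns and Chac1 rose, while Trib3 fell and so did Herpud1 of the ER chaperone branch.

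In the ER chaperone branch Hspa5 rose while Herpud1 fell. Hspa5 stood at 703, 689 and 674 CPM in GFP and 1061, 1032 and 1019 in OE (0.58 ± 0.03, adjusted p = 2.96e-10), and the fit of all 12 libraries gave an adjusted p of 0.0640. Herpud1 fell from 206, 208 and 206 CPM to 47.9, 48.9 and 46.3 (-2.12 ± 0.03, adjusted p = 1.35e-16). Xbp1 stood at 107, 107 and 101 CPM in GFP and 94.7, 96.2 and 92.4 in OE (-0.16 ± 0.03, adjusted p = 0.000183). The GFP and OE ranges of Xbp1 did not overlap in CPM. With limma on log2(TPM + 1), however, Xbp1 was called higher (0.15, adjusted p = 0.00288). The fit of all 12 libraries did not call Xbp1 (adjusted p = 0.488). Scaling by library totals moved the median of all genes from 0.01 to 0.15 and limma on log2(TPM + 1) moved it to 0.27. Less that median, Atf4 was -0.19 and Xbp1 -0.13 on the TPM scale, and all 10 members kept the direction given above.

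**Figure D4:**
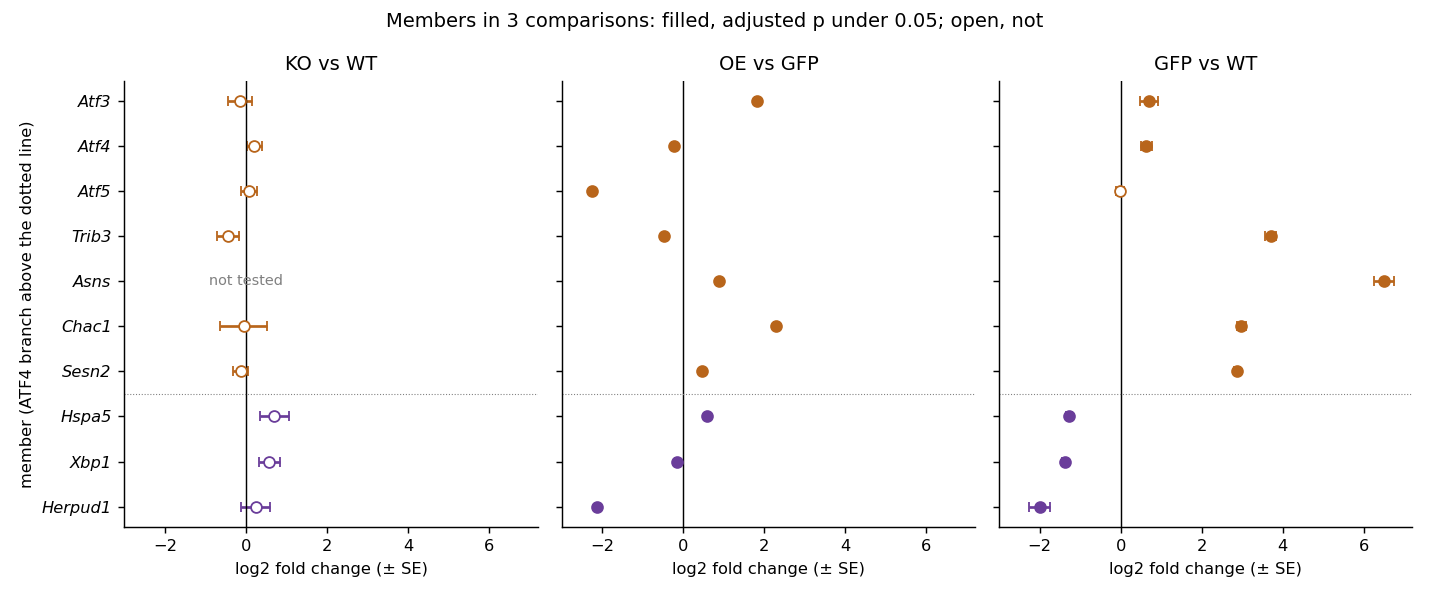
Log2 fold change (point) with its standard error (bar) of each member in KO against WT, OE against GFP and GFP against WT, on the same horizontal scale. Filled points passed at an adjusted p under 0.05, which held for 0, 10 and 9 members, and Asns was not tested in KO against WT.

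The wider pathway lists in OE against GFP moved in part against the members, beside 43.9% of all genes called higher and 42.7% lower. Of 14 amino acid synthesis and one-carbon genes, 11 fell and 3 rose (median -1.31), with Gpt2, an alanine aminotransferase, down from 293 ± 7.44 to 49.6 ± 2.43 CPM (-2.57 ± 0.04, adjusted p = 1.48e-16) and Phgdh, the first enzyme of serine synthesis, down from 84.3 ± 1.19 to 26.3 ± 0.953 CPM (-1.69 ± 0.04). Of 18 cytosolic tRNA synthetases, 15 fell and 3 rose (median -0.69), led by Vars (-1.94 ± 0.03) and Gars (-1.62 ± 0.03). Asns thus rose in a setting in which most other amino acid genes of the ATF4 lists fell. Of 8 transporters, 5 rose and 3 fell, and the 2 with the lowest p, Slc3a2 (-0.55 ± 0.03) and Slc6a9 (-0.64 ± 0.04), were among those that fell. Among 16 bZIP partners and effectors 7 rose and 8 fell. Ddit3 fell from 8.41 to 10.3 CPM in GFP to 2.17 to 3.10 in OE (-1.90 ± 0.13, adjusted p = 3.47e-09). Exons of Ddit3 overlap those of Mars on the opposite strand. Nupr1, a stress-induced chromatin protein, fell from 36.6 ± 3.52 to 0.924 ± 0.283 CPM (-5.30 ± 0.13), and Ddit4 from 97.9 ± 4.30 to 22.9 ± 1.46 CPM (-2.11 ± 0.05).

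The ER lists held genes of both directions, as did the ER branch members. Over all genes tested 43.9% were called higher and 42.7% lower, so such a mix does not set these lists apart. Of 20 ER chaperones and disulfide enzymes, 6 rose and 8 fell (median -0.06). Ero1l, the oxidase that drives disulfide formation, rose from 44.1 ± 0.640 to 833 ± 14.8 CPM (4.23 ± 0.04, adjusted p = 1.43e-18), and Dnajb9, a co-chaperone of BiP, from 38.0 ± 0.777 to 283 ± 13.0 CPM (2.89 ± 0.04). Chosen after their values were seen, P4hb (-1.31) and Calr (-0.96) were the steepest falls of the list. Of 17 degradation and translocation genes, 9 rose and 8 fell (median 0.12), with Selenos up 6.16-fold (2.62 ± 0.04) and Edem3 up 3.19-fold (1.67 ± 0.03). Among 13 sensors and eIF2α regulators, 7 rose and 4 fell. Atf6 rose from 91.8 to 233 CPM (1.34 ± 0.03), and Creb3l3, a liver-specific ER-bound factor, fell from 114 ± 5.88 to 8.78 ± 1.12 CPM (-3.71 ± 0.06). Mitochondrial chaperones and proteases were 5 higher and 4 lower of 10, with Hspe1 (0.96 ± 0.03) and Hspa9 (-1.20 ± 0.04) at the lowest p. Cytosolic heat shock genes were 4 higher and 5 lower of 10, with Bag3 (1.41 ± 0.03) and Hspb1 (-2.42 ± 0.03). With limma on log2(TPM + 1) the median of the chaperone list was 0.23 with 12 higher and 7 lower, against 0.27 for all genes, so the sign of that median rests on the scaling. Of the 8 hepatocyte markers, 7 fell and 1 rose over the same comparison. The cholangiocyte marker sum went from 121 to 140 CPM in GFP to at most 24.5 in OE, and the stellate cell sum from 8.11 to 9.35 CPM to at least 26.3. The part of these markers in the changes was not tested.

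**Figure D5:**
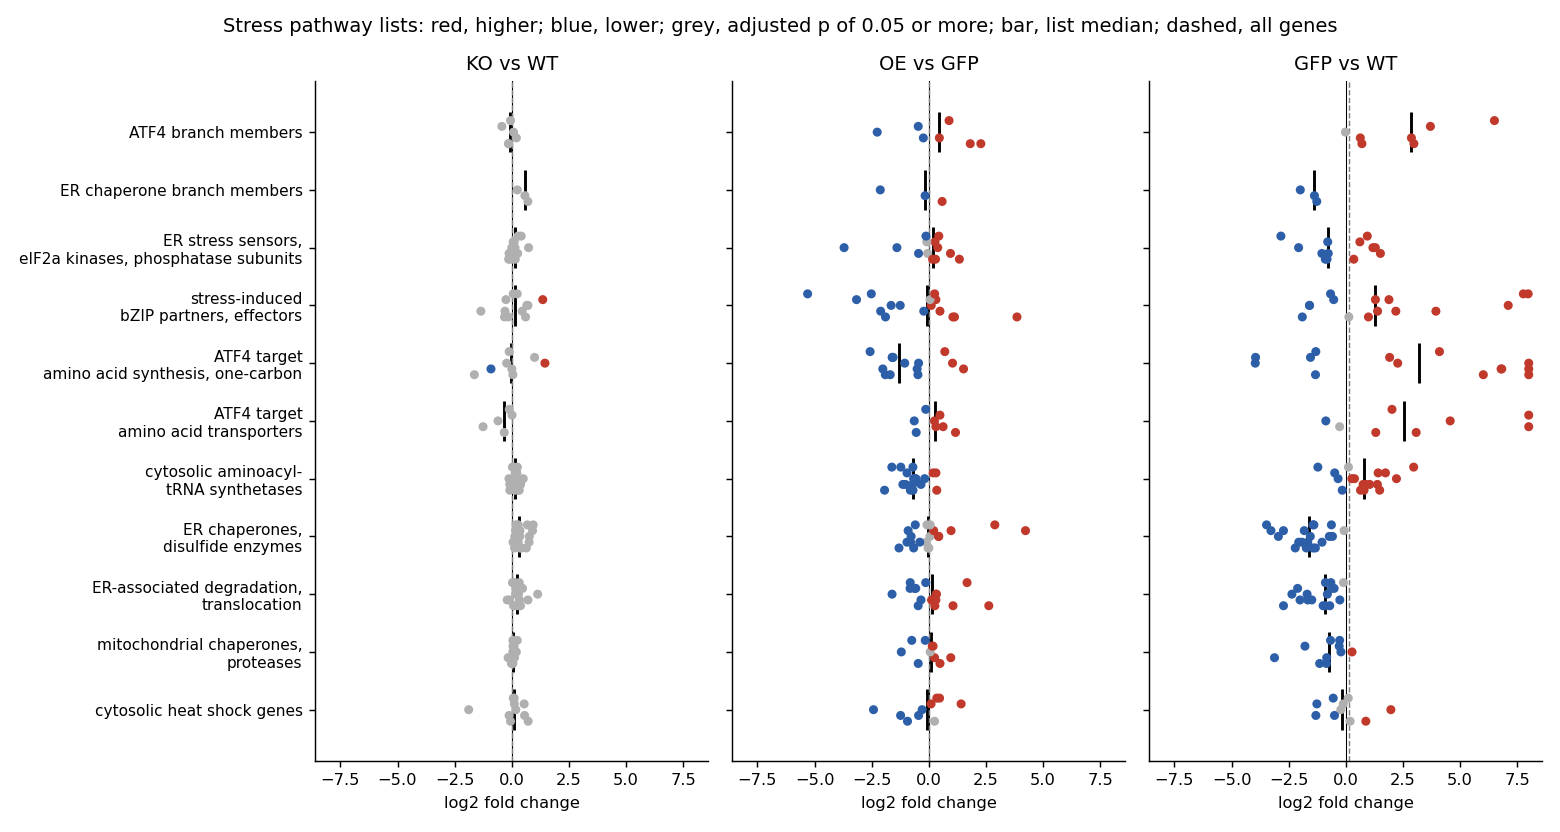
Log2 fold changes of the members and of 9 pathway lists in 3 comparisons. Each point is a gene, red where it passed as higher, blue as lower and grey where it did not pass, the black bar is the list median and the dashed line the median of all genes tested. In GFP against WT 19 of the 20 ER chaperones and 16 of the 17 degradation genes are lower on this scale (12 and 7 with library totals), and 5 genes beyond a log2 fold change of 8 are drawn at 8.

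The response to added Cebpa was set against the response to its loss in a fit of all 12 libraries. The test was of the OE against GFP change less the KO against WT change. Gain and loss are opposite, so a gene that follows the level of Cebpa also differs here, as Cebpa itself did (17.3). The difference passed for 6 of the 10 members, against 54.1% of the 15326 genes tested. Higher genes were 47.9% of those calls, and 66.7% with limma on log2(TPM + 1). Atf3 (1.99 ± 0.31), Chac1 (2.40 ± 0.50) and Sesn2 (0.61 ± 0.17) differed upward. Atf5 (-2.31 ± 0.22), Herpud1 (-2.33 ± 0.39) and Xbp1 (-0.70 ± 0.27, adjusted p = 0.0448) differed downward, and Xbp1 lost its call in 5 of the alternative fits and in 9 of the 12 that left out a library. Atf4 (-0.41 ± 0.19, adjusted p = 0.0918), Asns (0.77 ± 0.51), Trib3 (0.01 ± 0.19) and Hspa5 (-0.09 ± 0.38) did not pass. The call of Atf4 was gained without WT1 (-0.61, adjusted p = 0.00324) or KO3 (-0.51, adjusted p = 0.0352), and that of Hspa5 without KO2, with its sign turned (0.43, adjusted p = 0.0411). Asns turned to -0.15 without WT1, the library that held most of the WT Asns counts, and passed in both limma fits (1.39 on log2(TPM + 1), adjusted p = 0.000226, and 1.65 on log2(TPM + 0.1), adjusted p = 0.0342). The fit used a common coefficient of variation of 13.9%, above that of GFP and OE and below that of WT and KO.

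Between GFP and WT hepatocytes, effects of adenovirus, culture, genotype and preparation cannot be told apart. This comparison shares its WT libraries with KO against WT and its GFP libraries with OE against GFP. Of the 10 members 9 passed over 13760 genes, and the branches parted, 6 of 7 ATF4 branch members higher (45% of all genes) and 3 of 3 ER chaperone branch members lower (38.4% of all genes). Changes over 2-fold were called in 4 ATF4 branch members and in all 3 ER chaperone branch members (50.3% of all genes). Higher genes were 53.9% of all calls, 83.4% with library totals and 85.8% with limma on log2(TPM + 1). The median log2 fold change was 2.87 in the ATF4 branch and -1.37 in the ER chaperone branch, beside 0.13 over all genes.

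The ATF4 targets differed most. Asns stood at 1.30, 0.342 and 0.337 CPM in WT against 59.1 to 60.1 in GFP (6.50 ± 0.25, adjusted p = 8.65e-08). Trib3 rose from 2.59, 4.10 and 3.43 to 46.1, 43.0 and 44.4 CPM (3.70 ± 0.13, adjusted p = 4.70e-08), Chac1 from 2.73, 3.08 and 3.37 to 22.5, 24.5 and 26.1 CPM (2.98 ± 0.11) and Sesn2 from its level above to 79.3 to 84.0 CPM (2.87 ± 0.08). No WT library came near the GFP range of these 4 genes. The regulators moved less. Atf4 rose by 0.63 ± 0.14 (adjusted p = 0.00302) and Atf3 by 0.70 ± 0.21 (adjusted p = 0.0153, and 0.0523 without WT2), while Atf5 was at 297 ± 42.0 CPM in WT and 296 ± 7.32 in GFP (-0.02 ± 0.10, adjusted p = 0.842). Xbp1 fell from 269 ± 11.4 to 105 ± 3.09 CPM (-1.37 ± 0.06, adjusted p = 1.49e-07), Hspa5 from 1647 ± 167 to 689 ± 14.4 CPM (-1.27 ± 0.09, adjusted p = 2.32e-06) and Herpud1 from 815 ± 306 to 207 ± 0.952 CPM (-1.99 ± 0.26, adjusted p = 0.000124).

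These falls depended on the scaling. With library totals the median of all genes moved to 1.37, and the changes of Hspa5, Xbp1 and Herpud1 were -0.04, -0.14 and -0.75. With limma on log2(TPM + 1) the median was 1.33 and the 3 genes stood at 0.10, 0.01 and -0.51, none of them called, while Atf5 stood at 1.42 and was called higher. Less the median of the same fit, Hspa5 was -1.40 with TMM and with library totals and -1.23 on the TPM scale, and Xbp1 was -1.50, -1.50 and -1.32. The rise of the other 6 ATF4 branch members held under every scaling, and so did the gap between the branch medians, which was 4.24 with TMM, 4.24 with library totals and 3.81 on the TPM scale.

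The ER lists lay below the median gene between GFP and WT. Of 20 ER chaperones and disulfide enzymes 19 were lower and 0 higher (median -1.61), and the lowest p belonged to Ero1lb (-3.47 ± 0.10) and Pdia4 (-2.73 ± 0.08). Of 17 degradation and translocation genes 16 were lower and 0 higher (median -0.90), with Os9 (-2.11 ± 0.07) and Derl2 (-1.67 ± 0.05). With 13 sensors and eIF2α regulators the count was 6 higher and 7 lower, and Ern1, which encodes IRE1, fell from 218 ± 15.8 to 30.7 ± 1.04 CPM (-2.84 ± 0.07) and Creb3l3 from 474 ± 41.1 to 114 ± 5.88 CPM (-2.07 ± 0.08). Mitochondrial chaperones and proteases were 1 higher and 9 lower of 10, led by Clpx (-3.12 ± 0.08) and Dnaja3 (-1.79 ± 0.09). Cytosolic heat shock genes were 2 higher and 4 lower of 10, with Hsph1 (-1.27 ± 0.10) and Hspb1 (1.97 ± 0.15). With library totals the chaperone list was 5 higher and 12 lower (median -0.37), the degradation list 10 higher and 7 lower (median 0.34), the sensor list 10 higher and 2 lower (median 0.46), and the mitochondrial and heat shock medians turned to 0.48 and 1.07. Less the median of all genes, the chaperone median was -1.74 with TMM and with library totals and -1.52 on the TPM scale, and the degradation median -1.03, -1.03 and -0.80. Derl2 and Hsph1 turned to 0.07 and 0.17 on the TPM scale.

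The lists of ATF4 targets lay mostly on the other side. Amino acid synthesis and one-carbon genes were 9 higher and 5 lower of 14 (median 3.18), and transporters 6 higher and 1 lower of 8 (median 2.55). With library totals these lists were 9 higher and 3 lower, and 8 higher and 0 lower. Phgdh had 2 counts over the 3 WT libraries and 84.3 ± 1.19 CPM in GFP, a ratio of 1829 with an exact 95% interval from 506 to 15102 that covers counting error only. Slc7a11, the cystine importer, had 0 counts in WT and 79.8 ± 1.32 CPM in GFP, at least 1154-fold higher with 3 counts over the group as the floor. Mthfd1l rose by 6.01 ± 0.13 and Slc3a2, the partner chain of several amino acid transporters, by 3.08 ± 0.09. The tRNA synthetases were 13 higher and 4 lower of 18 (median 0.77), and 17 higher and 0 lower with library totals (median 2.01), with Gars up from 52.7 ± 2.83 to 416 ± 3.09 CPM (2.97 ± 0.06) and Rars by 2.21 ± 0.07. Of 15 bZIP partners and effectors tested, 9 were higher and 5 lower, and 12 and 2 with library totals. Nupr1 (7.77 ± 0.21) and Tnfrsf10b, a death receptor (7.10 ± 0.11), rose from 7 and 13 counts over the WT libraries, whereas Ddit3 was at 6.12 to 10.6 CPM in WT and 8.41 to 10.3 in GFP (0.13 ± 0.19, adjusted p = 0.528, but 1.37 with library totals, adjusted p = 0.000116). The cholangiocyte marker sum was 25.3 to 29.4 CPM in WT and 121 to 140 in GFP, with Tspan8, Cldn4, Cftr and Ggt1 at 0 in WT. The macrophage sum was 5.61 to 36.7 CPM in WT and 79.4 to 88.1 in GFP, where Cd68 rose but Clec4f, Cd5l and Csf1r fell, and Adgre1, Clec4f and Marco were at 0. The immediate early gene sum was 1155 to 1504 CPM in WT and 377 to 396 in GFP, and the part of these genes in the differences was not tested.

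The genes whose pattern over the 12 libraries was most like that of Atf4 and Hspa5 were sought among 8866 genes with a mean of at least 10 CPM, by Pearson's r of log2(CPM + 1). For Atf4 these were Acin1 (r = 0.943), Ppp2r5b (0.935), Snrnp40 (0.930), Parp10 (0.928) and Tbl3 (0.925). No gene of the pathway lists was among them. For Hspa5 they were Vnn3 (0.982), Pcyox1 (0.979), Dpagt1 (0.979), Ubxn4 (0.977) and Pnrc1 (0.976), and Ubxn4, an ER membrane factor of protein degradation, also stands in the degradation list. Libraries of a group share their treatment, so these 12 points are not independent.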

How the data were processed

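Stranded poly(A) libraries were sequenced. The processing tools that the authors listed, per the labels, were Trimmomatic 0.36, STAR 2.5.1, Picard 1.84, RSEM 1.2.22 and DESeq2, with mouse build mm10. The deposited tables hold RSEM expected counts, TPM and FPKM per gene. The deposited expected counts are estimated reads, not scaled to depth, the deposited TPM values are scaled for length and sum per library, and the deposited FPKM values were not used. Members and lists were chosen with earlier results of these data known. Expected counts were rounded, filtered (filterByExpr, minimum count 10, total 15), scaled by TMM and tested with the quasi-likelihood F test of edgeR 4.0.16, each comparison on its own 6 libraries, with Benjamini-Hochberg adjustment over all genes. CPM used TMM factors over all 12 libraries. Lists are described by counts and medians. Of each list the 2 genes with the lowest p per comparison, and Ddit3, were named. Alternatives were DESeq2 1.42.0, other scalings and filters, limma 3.58.1 on log2(TPM + 1) and log2(TPM + 0.1), a model with all 12 libraries together, blocking on replicate number, and omission of single libraries. The fits were tested on simulated data. Promoter windows came from RefSeq, and coordinates from GENCODE M21. Read counts are not independent molecules, so floors and intervals cover counting error only.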

Additional observations from a re-analysis of the deposited data

Results flagged for a closer look

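For 6 members the change in OE against GFP differed from the change in KO against WT, by an interaction test in edgeR over all 12 libraries. Over all genes 54.1% passed the same test, so this count does not set the members apart. The difference of log2 fold changes was 2.40 for Chac1 (adjusted p = 0.00159), 1.99 for Atf3 (adjusted p = 0.000174) and 0.61 for Sesn2 (adjusted p = 0.0102). It was -2.33 for Herpud1 (adjusted p = 0.000305), -2.31 for Atf5 (adjusted p = 3.70e-06) and -0.70 for Xbp1 (adjusted p = 0.0448). The adjusted p of Xbp1 ranged from 0.00461 to 0.305 over its alternatives, and the other 5 stayed at or under 0.0325. The promoter window of Herpud1 held a C/EBP-ATF composite element and an ER stress element II, the motif added after the windows had been seen. Atf3 and Chac1, which differed upward, held the composite element too, and the part of these elements was not tested.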

How the results depend on the processing

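The number of members called was 0 in KO against WT in every fit, 9 or 10 in OE against GFP except 7 with all 12 libraries in 1 model, 7 to 9 in GFP against WT and 5 to 7 for the difference between the Cebpa effects. Over all genes, the calls in KO against WT went from 203 to 623 with DESeq2, 324 with no filter, 91 with a stricter filter, 112 and 103 with limma on log2(TPM + 1) and log2(TPM + 0.1), 1205 with all 12 libraries and 42 to 396 without a library. Over all genes omission of a library gave 12813 to 12924 calls in OE against GFP and 11005 to 11615 in GFP against WT. Same-numbered libraries had correlations of deviations from -0.277 to 0.0657. These showed no sign of pairing by number, but so few libraries cannot exclude it. With the replicate block 87 genes were called in KO against WT, 12816 in OE against GFP and 11115 in GFP against WT, with 0, 10 and 9 members, and 5 members in the difference.

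With limma on log2(TPM + 1) and log2(TPM + 0.1), OE against GFP turned to 0.0805 and 0.0807 for Atf4 and 0.146 and 0.147 for Xbp1. Atf4 and Xbp1 were each called higher in both of these fits. GFP against WT turned to 1.42 in both for Atf5 and 0.103 in both for Hspa5, and to 0.0113 and 0.0114 for Xbp1, 0.0691 and 0.0700 for Derl2 and 0.169 and 0.172 for Hsph1. Atf5 was also at 1.21 with library totals, 0.0757 with no filter and 0.00991 with the stricter filter. The difference turned for Trib3 to -0.00822 with DESeq2, -0.0155 with size factors of the DESeq2 type and -0.00618 with the replicate block, and for Hspa5 to 0.0843 with library totals, 0.388 in both limma fits and 0.0398 with the replicate block. The larger turns in GFP against WT went with the shift of the median gene. Less the median of all genes, a choice made after seeing the data, the limma values on log2(TPM + 1) in OE against GFP were -0.19 for Atf4 and -0.13 for Xbp1, and Atf5 in GFP against WT was -0.15 with library totals and 0.0902 with limma on log2(TPM + 1). The cause of the other turns was not tested.

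Omission of a library moved KO against WT within -0.34 to 0.21 for Atf3, -0.15 to 0.23 for Atf5, -1.03 to 0.36 for Chac1, -0.30 to 0.00474 for Sesn2, -0.0629 to 0.515 for Herpud1 and -0.0724 to 0.896 for Ddit3, and the median of the ER degradation list to -0.0229 without KO2. In GFP against WT the range was -0.132 to 0.0672 for Atf5 and -0.0543 to 0.335 for Ddit3. In the difference it was -0.16 to 0.16 for Trib3, -0.15 to 1.18 for Asns and -0.36 to 0.43 for Hspa5. Precision in WT and KO was limited by the spread between libraries, and for Asns, Trib3 and Chac1 by low counts (28 to 147 over a group).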
